A study of Mus musculus with 4 samples.

Results

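The 10 genes described here encode the platelet-derived growth factor (PDGF) receptors and ligands and 4 genes used to recognise pericytes, and they were chosen by name: *Pdgfra*, *Pdgfrb*, *Pdgfa*, *Pdgfb*, *Pdgfc*, *Pdgfd*, *Cspg4*, *Rgs5*, *Kcnj8* and *Abcc9*. All 10 were found among the 21462 genes of the expression table, and all 10 were among the 16659 genes with a mean of at least 10 normalized counts that were tested. The study asked what loss of *Tet3*, which encodes an enzyme that oxidizes 5-methylcytosine in DNA, does to the transcripts of lung smooth muscle cells (SMCs). RNA came from SMCs sorted from mouse lung, with 2 control and 2 Tet3 mutant libraries.

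All mice were on the C57BL/6 background, and the methods describe tamoxifen injection without setting the controls apart. Tet3 mutant mice carried floxed *Tet3* alleles, an inducible Cre recombinase driven by the smooth muscle actin (α-SMA) promoter and a ROSA26 tdTomato reporter. Across the study's experiments, controls lacked the floxed alleles and carried the Cre, the reporter or both. Sorting for tdTomato, as done here, requires both. Lung cell suspensions were depleted of CD45 and Ter-119 positive cells on beads, and viable tdTomato positive cells were sorted, so the sample held any cell in which the α-SMA promoter had driven recombination. The study describes each library as an independent animal. Tamoxifen was started in young adult mice, and the study used both sexes, but the age at sorting and the sex of the animals behind these libraries are not given in the sources used here.

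PDGF ligands are secreted dimers that bring together 2 receptor tyrosine kinase chains, PDGF receptor α, encoded by *Pdgfra*, and PDGF receptor β, encoded by *Pdgfrb*. In the vessel wall, endothelial cells release PDGF-B, and pericytes and SMCs carry the β receptor. The α receptor is best known from fibroblasts and, in lung, from the precursors of alveolar myofibroblasts, whereas pericytes are commonly recognised by *Pdgfrb* together with *Cspg4*, *Rgs5*, *Kcnj8* and *Abcc9*.

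Values are the authors' normalized counts, rounded to whole numbers, and the reads counted in genes were estimated at 6.32 M to 7.56 M a library. *Tet3* itself stood at 1847 and 1926 normalized counts in the controls and at 1534 and 1444 in the mutants, with values here and below in the order replicate 1, replicate 2. Control replicate 2 stood apart from the other libraries: 999 genes differed there by more than 2-fold from each of the other 3, against 115 to 247 in the others, it had 2 normalized counts of *Xist* against 5214 to 6781 and 774 of the Y-linked *Ddx3y* against 0. Results for the 10 genes are therefore given with and without this library. By *Xist* and *Ddx3y*, control replicate 2 was of male type and the other 3 libraries, both mutants among them, were of female type. The part of sex in the differences of control replicate 2 was not tested. The defining SMC markers *Acta2*, *Tagln* and *Myh11* were present at high levels per kb of exon, at 404, 292 and 275 normalized counts per kb on average. *Cnn1*, another SMC marker chosen after its values were seen, was lower at 44.9, above 44.4% of the genes tested. Markers that define other cells were also high, with *Pecam1* and *Cdh5* of endothelium at 316 and 532, *Col1a1* and *Dcn* of fibroblasts at 575 and 235, and *Sftpc* of alveolar type 2 cells, chosen after its values were seen, at 910. In such bulk samples a lower share of one cell type and less RNA per cell cannot be told apart.

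In the Tet3 mutant libraries, 6 of the 10 genes had both values above both controls: the β receptor gene *Pdgfrb*, the ligand genes *Pdgfb* and *Pdgfd*, and the pericyte genes *Cspg4*, *Kcnj8* and *Abcc9*. The pericyte gene *Rgs5* had both values below both controls. The groups overlapped for *Pdgfra*, *Pdgfa* and *Pdgfc*. Across all genes tested, groups did not overlap with the mutants higher for 19.6% of genes and with the mutants lower for 19.5%. At an adjusted p under 0.05, limma called 0 of the 10. Over all genes limma also called 0, or 0% of those tested, with a smallest adjusted p of 0.0902 and 1112 genes at an unadjusted p under 0.05.

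**Figure D1:**
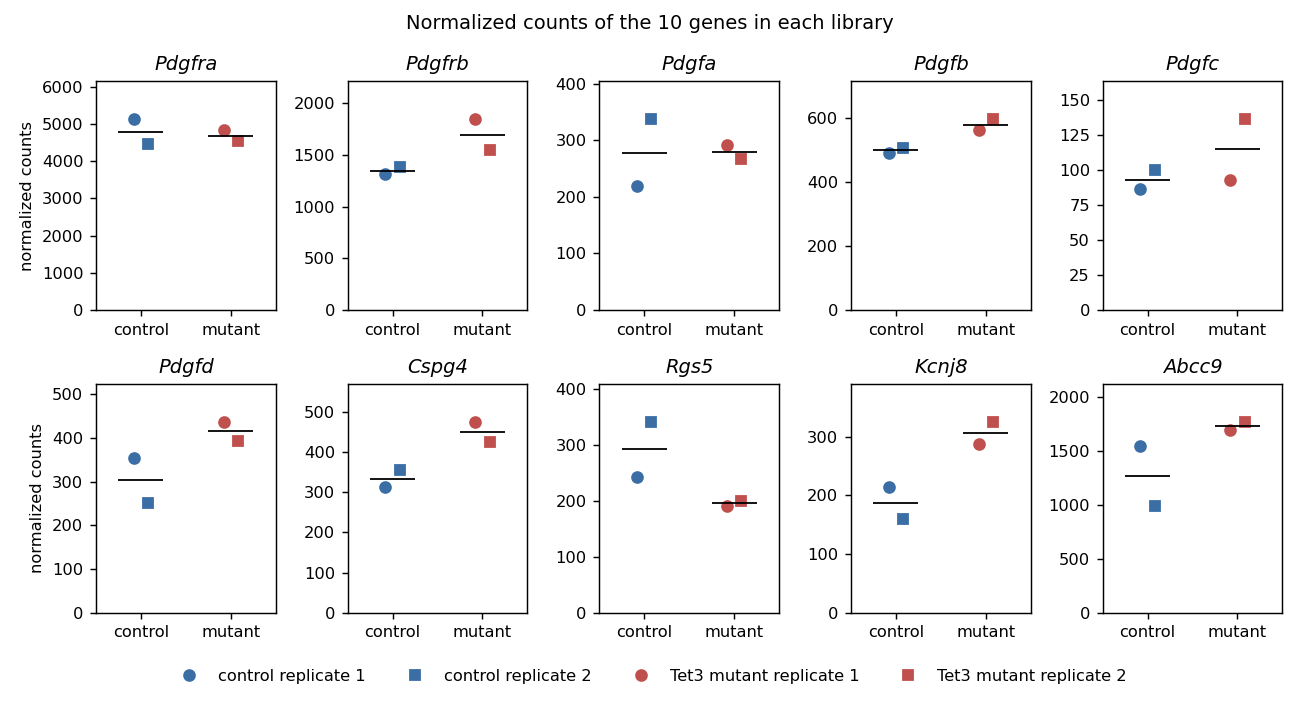
Normalized counts (vertical axes, each starting at 0) of the 10 genes in the 2 control and 2 Tet3 mutant libraries, with 1 point per library and a line at each group mean. Mutant points lie above both control points for *Pdgfrb*, *Pdgfb*, *Pdgfd*, *Cspg4*, *Kcnj8* and *Abcc9* and below both for *Rgs5*.

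At an unadjusted p under 0.05, 3 of the 10 genes were higher in mutants (*Kcnj8*, *Cspg4* and *Pdgfrb*) and 1 was lower (*Rgs5*), beside 3.83% of all genes higher and 2.85% lower. Fold changes are mutant over control after log2(value + 1), a scale that understates those of low genes, and the folds given with intervals are fitted on it, so they can differ slightly from the ratio of the group means. The log2 fold change was above 0 for 8 of the 10 and its median was 0.30. Over all genes tested the median was -0.01 and 49.0% lay above 0. Without control replicate 2, both mutants lay above control replicate 1 for 8 of the 10 and below it for 2, *Pdgfra* and *Rgs5*, beside 32.4% and 35.7% of all genes, and the median of the 10 was 0.29. With all libraries, the 4 pericyte genes had a median of 0.46, the 4 ligand genes one of 0.24 and the 2 receptor genes one of 0.15. Without control replicate 2 these medians were 0.34, 0.29 and 0.12.

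**Figure D2:**
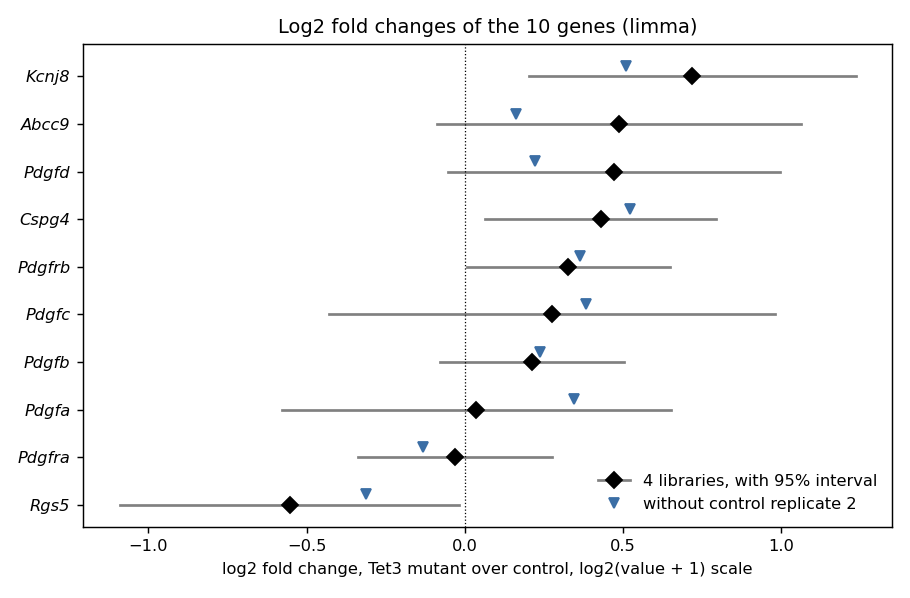
Log2 fold change of each gene, Tet3 mutant over control (horizontal axis), from limma over 4 libraries with its 95% interval (diamonds and bars) and without control replicate 2 (triangles). *Kcnj8*, *Cspg4*, *Pdgfrb* and *Rgs5* have intervals that do not reach 0, and the value of *Abcc9* moves from 0.49 to 0.16 without that library.

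The receptors were described first. *Pdgfrb* (ENSMUSG00000024620, GRCm38 chromosome 18, 61045150 to 61085061, plus strand) had 1312 and 1379 normalized counts in the controls and 1843 and 1546 in the mutants. Both mutants were above both controls, and mutant replicate 1 was the highest. The means of 1345.5 ± 47.4 and 1694.5 ± 210 (SD, n = 2 each) stood beside a fitted fold of 1.25 with a 95% interval of 1.00 to 1.57. The log2 fold change of 0.33 (standard error 0.13) did not pass the limma test (unadjusted p = 0.0472, adjusted p = 0.681). Leaving out any 1 library kept it between 0.20 and 0.45.

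*Pdgfra* (ENSMUSG00000029231, chromosome 5, 75152292 to 75198215, plus strand) had 5123 and 4449 normalized counts in the controls and 4821 and 4532 in the mutants. The mutant values lay between those of the controls. Means were 4786 ± 477 and 4676.5 ± 204 (SD, n = 2 each), and the log2 fold change of -0.03 (standard error 0.12, limma adjusted p = 0.955) took either sign when 1 library was left out, from -0.13 to 0.07. Its 95% interval allowed a mutant level from 0.791 to 1.21 times that of the controls.

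The balance between the receptor transcripts was examined within each library, on values per kb of exon. *Pdgfra* stood above *Pdgfrb* by 2.13 and 1.76 times in control replicates 1 and 2 and by 1.43 and 1.6 times in mutant replicates 1 and 2. The ratio was lower in both mutants than in both controls, and *Pdgfrb* made up 31.9% and 36.2% of the summed receptor level in controls and 41.2% and 38.4% in mutants. On normalized counts the log2 ratio of *Pdgfra* to *Pdgfrb* differed by -0.36 between mutant and control means, with an exact two-sided permutation p of 0.33, the smallest that 2 against 2 libraries allow.

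Among the ligands, *Pdgfb*, which encodes the endothelial ligand of the β receptor, had the closest replicates. *Pdgfb* (ENSMUSG00000000489, chromosome 15, 79995874 to 80014977, minus strand) had 490 and 507 normalized counts in the controls and 561 and 596 in the mutants. Both mutants were higher, and the gap between the groups exceeded the gap within either. The means of 498.5 ± 12.0 and 578.5 ± 24.7 (SD, n = 2 each) stood beside a fitted fold of 1.16 with a 95% interval of 0.948 to 1.42, which did not pass the limma test (log2 fold change 0.21, standard error 0.11, adjusted p = 0.689).

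*Pdgfd* (ENSMUSG00000032006, chromosome 9, 6168584 to 6378850, plus strand) encodes a ligand that is secreted as an inactive precursor and, once cleaved, binds mainly the β receptor. It had 355 and 251 normalized counts in the controls and 437 and 393 in the mutants. Both mutants were higher, but the 2 controls lay further apart than control replicate 1 and either mutant. The means of 303 ± 73.5 and 415 ± 31.1 (SD, n = 2 each) stood beside a fitted fold of 1.39 with a 95% interval of 0.964 to 1.99, and the log2 fold change of 0.47 (standard error 0.20, limma adjusted p = 0.681) was 0.22 without control replicate 2.

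*Pdgfa* (ENSMUSG00000025856, chromosome 5, 138976014 to 138997370, minus strand), whose product acts through the α receptor, had 219 and 337 normalized counts in the controls and 292 and 266 in the mutants. The controls held both the lowest and the highest value. Means were 278 ± 83.4 and 279 ± 18.4 (SD, n = 2 each), and the log2 fold change of 0.04 (standard error 0.24, limma adjusted p = 0.974) ran from -0.27 to 0.35 when 1 library was left out. *Pdgfa* shares 26.1% of its exon length with the antisense gene *6330403L08Rik*, which had 356 and 348 normalized counts in the controls and 292 and 299 in the mutants. Reads that overlapped several genes were left out of the counts. Whether strand was used in counting is not stated, so reads of the shared part may have been dropped. The level of *Pdgfa* per kb and its share of the ligands may then be understated.

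*Pdgfc* (ENSMUSG00000028019, chromosome 3, 81036416 to 81214040, plus strand) also encodes a ligand activated by cleavage. It was the lowest of the 10, with 86 and 100 normalized counts in the controls and 93 and 136 in the mutants. Mutant replicate 1 fell between the controls, and counting error alone was 8.14% to 10.8% in the 4 libraries, against 1.37% to 1.54% for *Pdgfra*. The log2 fold change of 0.28 (standard error 0.28, limma adjusted p = 0.791) was about as large as its error, and it was 0.55 without mutant replicate 1 and 0.004 without mutant replicate 2.

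The 4 ligand transcripts together summed to 317 and 329 normalized counts per kb in the controls and 385 and 380 in the mutants. Their proportions were alike in 3 libraries and differed in control replicate 2. *Pdgfa* took 22.1%, 32.8%, 24.3% and 22.5% of the sum in control replicates 1 and 2 and mutant replicates 1 and 2, and *Pdgfd* took 35.5%, 24.2%, 36.0% and 32.8%. The share of *Pdgfb* stayed between 35.0% and 37.7% and that of *Pdgfc* between 4.74% and 7.04%. The ligands secreted as inactive precursors (*Pdgfc* and *Pdgfd*) were set against the others (*Pdgfa* and *Pdgfb*). Their log2 ratio was -0.54 and -1.21 in the controls and -0.54 and -0.59 in the mutants, so the groups overlapped (exact two-sided permutation p = 1).

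**Figure D3:**
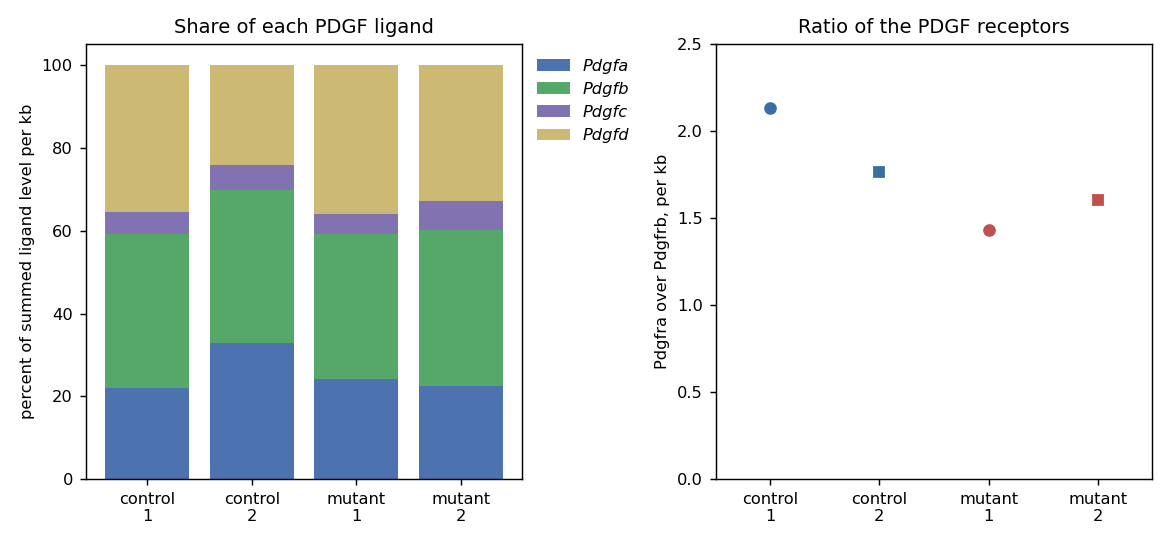
Left, the percent of the summed PDGF ligand level per kb of exon taken by each ligand gene in each library. Right, the ratio of *Pdgfra* to *Pdgfrb* per kb in each library, with 2.13 and 1.76 in the controls above 1.43 and 1.6 in the mutants, while the *Pdgfa* share stands highest in control replicate 2 at 32.8%.

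The pericyte genes held the highest and the lowest fold change of the 10. Their upstream sequences are shown because *Kcnj8*, *Abcc9*, *Cspg4* and *Rgs5* differed in direction and because TET3 acts on CG dinucleotides, although DNA modification was not analysed here. For highly expressed contractile genes, the study reported less of the oxidized base in gene bodies of mutant cells but not at promoters. The 250 bases before the transcription start are printed 5′ to 3′ on the strand of the gene, from RefSeq on GRCm38.p6, with CG dinucleotides in capitals. They lie at chr6:142571615-142571864 on the minus strand (*Kcnj8*), chr6:142702275-142702524 on the minus strand (*Abcc9*), chr9:56864854-56865103 on the plus strand (*Cspg4*) and chr1:169655251-169655500 on the plus strand (*Rgs5*). The *Abcc9* and *Cspg4* windows reach into the gene coordinates given below, which begin upstream of the RefSeq start.
Kcnj8: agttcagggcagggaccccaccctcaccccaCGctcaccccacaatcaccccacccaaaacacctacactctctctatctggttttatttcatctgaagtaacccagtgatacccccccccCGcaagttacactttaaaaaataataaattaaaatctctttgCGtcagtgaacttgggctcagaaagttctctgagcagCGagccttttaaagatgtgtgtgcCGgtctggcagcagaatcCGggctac
Abcc9: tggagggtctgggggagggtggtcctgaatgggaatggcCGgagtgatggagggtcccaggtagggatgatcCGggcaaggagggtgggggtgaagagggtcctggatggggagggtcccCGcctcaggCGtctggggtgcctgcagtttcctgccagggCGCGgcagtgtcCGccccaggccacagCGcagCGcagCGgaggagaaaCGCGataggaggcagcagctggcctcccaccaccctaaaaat
Cspg4: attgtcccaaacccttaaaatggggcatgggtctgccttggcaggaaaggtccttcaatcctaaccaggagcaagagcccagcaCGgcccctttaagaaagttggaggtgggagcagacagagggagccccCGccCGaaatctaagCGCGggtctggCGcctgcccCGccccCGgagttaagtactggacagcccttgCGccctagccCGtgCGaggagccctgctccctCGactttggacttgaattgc
Rgs5: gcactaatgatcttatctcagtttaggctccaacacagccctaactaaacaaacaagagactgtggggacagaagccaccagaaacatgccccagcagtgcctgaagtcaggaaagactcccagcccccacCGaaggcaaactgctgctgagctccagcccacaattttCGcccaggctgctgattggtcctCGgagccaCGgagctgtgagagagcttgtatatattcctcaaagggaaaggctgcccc

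The *Abcc9* and *Cspg4* windows held 12 CG each, the *Kcnj8* window 6 and the *Rgs5* window 4, beside a median of 6 over 32851 RefSeq promoters of the same length. Their GC contents were 66.8%, 60.4%, 49.2% and 53.6%, beside a median of 52.4%. On both strands, the letters TGGGAA, which the Notch effector RBPJ binds, were found in the *Abcc9* window and in 21.6% of all promoters. The GC box GGGCGG, which itself contains a CG, was found in the *Abcc9* and *Cspg4* windows and in 32.7% of all. TATAAA (12.4% of all) and the CArG box bound by serum response factor (1.47% of all) were in none of the 4 windows, and *Kcnj8* and *Rgs5* held none of the motifs searched. RefSeq windows were matched for 8 of the 10 genes, and *Pdgfb* and *Pdgfrb* are named only.

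*Kcnj8* (ENSMUSG00000030247, chromosome 6, 142564837 to 142571614, minus strand) encodes the pore-forming subunit of the ATP-sensitive potassium channel of vascular mural cells. It had 214 and 160 normalized counts in the controls and 287 and 325 in the mutants. Both mutants were above both controls by more than either group's own gap. The means of 187 ± 38.2 and 306 ± 26.9 (SD, n = 2 each) stood beside a fitted fold of 1.65 with a 95% interval of 1.15 to 2.36. The log2 fold change of 0.72 (standard error 0.20) was the largest of the 10 and did not pass the limma test (unadjusted p = 0.0157, adjusted p = 0.681). It stayed between 0.51 and 0.93 when 1 library was left out.

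*Abcc9* (ENSMUSG00000030249, chromosome 6, 142587862 to 142702315, minus strand) encodes the sulfonylurea receptor subunit of the same channel and lies 16.2 kb from *Kcnj8* on the same strand. It had 1550 and 989 normalized counts in the controls and 1699 and 1772 in the mutants. The mutants were higher and close together, and control replicate 2 was far below the other 3 libraries. The means of 1269.5 ± 397 and 1735.5 ± 51.6 (SD, n = 2 each) stood beside a fitted fold of 1.40 (95% interval 0.940 to 2.09), with a log2 fold change of 0.49, a standard error of 0.23 and a limma adjusted p of 0.681. Without control replicate 2 the log2 fold change was 0.16, so most of the difference rested on that library.

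Per kb of exon, *Abcc9* exceeded *Kcnj8* by 2.20 and 1.88 times in the controls and by 1.80 and 1.66 times in the mutants. The ratio of the channel subunits was lower in both mutants than in both controls. Control replicate 2 and mutant replicate 1 lay closer together than the controls did to each other. Counting error of *Kcnj8* alone was 8.11% in control replicate 2 and 6.16% in mutant replicate 1. On normalized counts the log2 ratio of *Kcnj8* to *Abcc9* was -2.85 and -2.62 in the controls and -2.56 and -2.44 in the mutants, a difference of 0.23 with an exact two-sided permutation p of 0.33.

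*Cspg4* (ENSMUSG00000032911, chromosome 9, 56865033 to 56899870, plus strand) encodes the proteoglycan NG2, which binds PDGF ligands at the surface of pericytes. It had 312 and 355 normalized counts in the controls and 475 and 424 in the mutants. Both mutants were higher, and its 4 leave-one-out values, 0.34 to 0.52, were the closest among the 4 pericyte genes. The means of 333.5 ± 30.4 and 449.5 ± 36.1 (SD, n = 2 each) stood beside a fitted fold of 1.35 (95% interval 1.05 to 1.74). The log2 fold change of 0.43 (standard error 0.14, limma unadjusted p = 0.0290, adjusted p = 0.681) rested less on control replicate 2 than that of *Abcc9*, at 0.52 without it.

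*Rgs5* (ENSMUSG00000026678, chromosome 1, 169655501 to 169695813, plus strand) encodes a GTPase-activating protein that dampens G protein signalling downstream of vasoconstrictor receptors. It was the only one of the 10 with both mutants below both controls, at 244 and 342 normalized counts in the controls and 192 and 201 in the mutants. The mutants lay close together, and control replicate 2 was the highest. The means of 293 ± 69.3 and 196.5 ± 6.36 (SD, n = 2 each) stood beside a fitted fold of 0.681 with a 95% interval of 0.470 to 0.988. The log2 fold change of -0.55 (standard error 0.21, limma unadjusted p = 0.0452, adjusted p = 0.681) was -0.31 without control replicate 2.

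Levels of different genes were compared per kb of exon, as the mean over the 4 libraries. *Pdgfra* stood at 472 normalized counts per kb, above 99.2% of the genes tested. *Pdgfrb* followed at 277, then *Abcc9* at 179, *Pdgfb* at 129, *Pdgfd* at 114, *Kcnj8* at 96.7, *Pdgfa* at 89.3, *Rgs5* at 53.8, *Cspg4* at 32.8 and *Pdgfc* at 20.4. *Pdgfra*, *Pdgfrb* and *Abcc9* each lay above the next lower of the 3 in every library. From *Abcc9* down to *Rgs5*, each gene's range over the libraries overlapped that of its neighbour in this order, as did the ranges of *Cspg4* and *Pdgfc*, although *Cspg4* was above *Pdgfc* in every library. *Rgs5* lay above the range of *Cspg4*.

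**Figure D4:**
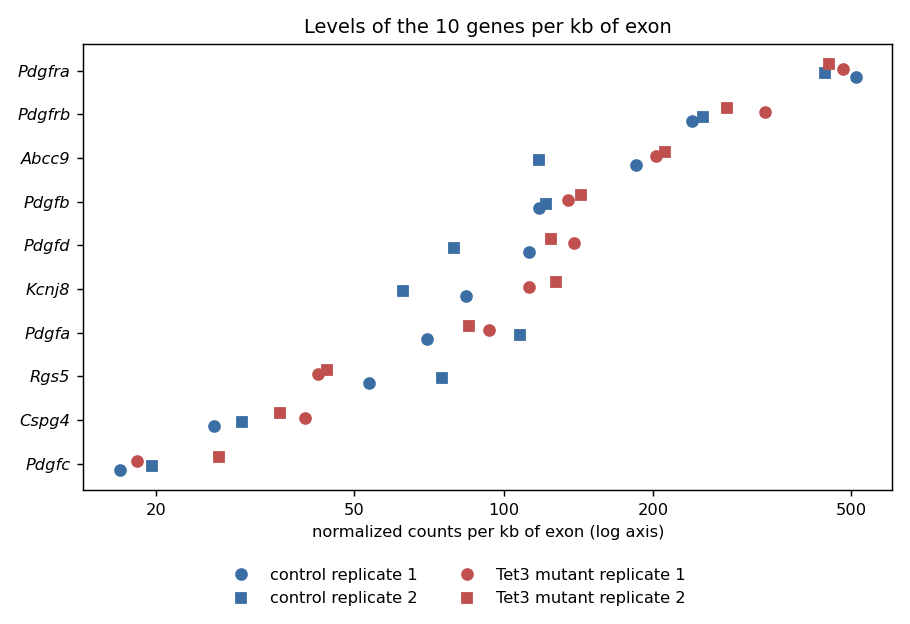
Normalized counts per kb of exon (horizontal log axis) of the 10 genes, ordered by mean, with 1 point per library coloured by group. *Pdgfra* leads at a mean of 472 and *Pdgfc* is lowest at 20.4, and neighbouring genes from *Abcc9* to *Rgs5* overlap.

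The other genes of the pathway were followed in lists. Of 37 tested genes that carry PDGF receptor signals (adaptors, kinases, transcription factors), 13 had a log2 fold change above 0 and the median was -0.03. None of the 37 passed limma at an adjusted p under 0.05, and 1 was past an unadjusted p of 0.05, *Srf*, which encodes serum response factor, with 612 and 573 normalized counts in the controls and 435 and 439 in the mutants (log2 fold change -0.44, adjusted p = 0.681). *Srf* was also the lowest of the list. Both mutants lay below both controls for 11 of the 37 and above both for 1, beside 19.5% and 19.6% of all genes.

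Of 22 genes for ligand processing and receptor regulation, 12 were above 0, with a median of 0.01. None passed limma at an adjusted p under 0.05, and 4 were higher at an unadjusted p under 0.05. The highest was *Pdgfrl*, which encodes a secreted protein related to the receptor ectodomain, at 144 and 96 normalized counts in the controls and 206 and 217 in the mutants (log2 fold change 0.84, standard error 0.25). *Pdgfrl* is also counted among the fibroblast markers below. The lowest, *St14*, which encodes the protease matriptase, had 240 and 747 in the controls and 204 and 329 in the mutants, for a log2 fold change of -0.71 that turned to 0.11 once control replicate 2 was left out. The other 3 were chosen after their values were seen. *Plat* encodes the tissue plasminogen activator that cleaves PDGF-C, and it had 601 and 538 normalized counts in the controls and 881 and 710 in the mutants. *Plau* encodes urokinase, an activator of PDGF-D, and it had 173 and 176 in the controls and 243 and 288 in the mutants. *Sulf1*, which encodes a heparan sulfate sulfatase, had 805 and 896 in the controls and 1244 and 1039 in the mutants. All 3 were higher in both mutants, with log2 fold changes of 0.48, 0.60 and 0.42 and a limma adjusted p of 0.681 each.

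Of 15 related growth factor and receptor genes, 10 were above 0, with a median of 0.19 that was 0.08 without control replicate 2, and 0 passed limma at an adjusted p under 0.05, with 2 at an unadjusted p under 0.05. *Pgf*, which encodes placental growth factor, was the highest, with 61 and 74 normalized counts in the controls and 124 and 115 in the mutants (log2 fold change 0.82, standard error 0.24). *Il34*, which encodes a ligand of the CSF1 receptor, was the lowest at -0.70, with 45 and 153 in the controls and 44 and 59 in the mutants, and it stood at 0.18 without control replicate 2. *Csf1r*, chosen after its values were seen as the neighbour of *Pdgfrb* at 15.5 kb on the same strand, had 1484 and 1478 in the controls and 1707 and 1833 in the mutants. *Csf1r* is also counted among the macrophage markers below. *Kit*, the related receptor gene nearest to *Pdgfra* at 377 kb and chosen in the same way, had 1331 and 919 in the controls and 1091 and 1070 in the mutants, so the groups overlapped.

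Of 26 other pericyte genes, 23 had log2 fold changes above 0, with a median of 0.35 that ran from 0.21 without mutant replicate 1 to 0.47 without control replicate 2. None passed limma at an adjusted p under 0.05, while 4 were higher and 0 lower at an unadjusted p under 0.05, and 17 had both mutants above both controls with 0 below, beside 19.6% and 19.5% of all genes. The highest was *Foxs1*, a forkhead transcription factor gene, with 20 and 26 normalized counts in the controls and 51 and 32 in the mutants (log2 fold change 0.80). *Anpep*, which encodes aminopeptidase N, was the lowest at -0.67, with 961 and 1855 in the controls and 715 and 982 in the mutants, and was -0.20 without control replicate 2. *Des*, which encodes the intermediate filament desmin and was chosen after its values were seen, had 623 and 754 in the controls and 972 and 965 in the mutants.

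The relatives of the channel and RGS genes differed in direction between lists. Of 3 other tested inward rectifier genes, *Kcnj15* and *Kcnj2* were lower and *Kcnj12* higher by fold change. *Kcnj2* had 517 and 1235 normalized counts in the controls and 271 and 376 in the mutants, and *Kcnj15* had 991 and 2161 in the controls and 389 and 793 in the mutants. Both genes were past an unadjusted p of 0.05 but had limma adjusted p of 0.681, with log2 fold changes of -1.32 and -1.40, opposite in sign to that of *Kcnj8*. *Kcnj12* was low, with 10 and 23 in the controls and 20 and 17 in the mutants. The median of the 3 was -1.32, and with 1 library left out it ran from -1.95 without control replicate 1 to -0.69 without control replicate 2.

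Of 6 other tested RGS genes of the same subfamily as *Rgs5*, all 6 had log2 fold changes above 0, with a median of 0.42, and limma called 0 of them at an adjusted p under 0.05 and 1, *Rgs3*, at an unadjusted p under 0.05. The range ran from *Rgs2* at 0.09, with 837 and 793 normalized counts in the controls and 956 and 792 in the mutants, to *Rgs18* at 0.94, with 100 and 50 in the controls and 110 and 170 in the mutants. *Rgs4*, chosen after its values were seen as the neighbour of *Rgs5* at 45.7 kb on the opposite strand, had 112 and 94 in the controls and 192 and 128 in the mutants. The resulting log2 fold change of 0.61 was opposite in sign to that of *Rgs5*.

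**Figure D5:**
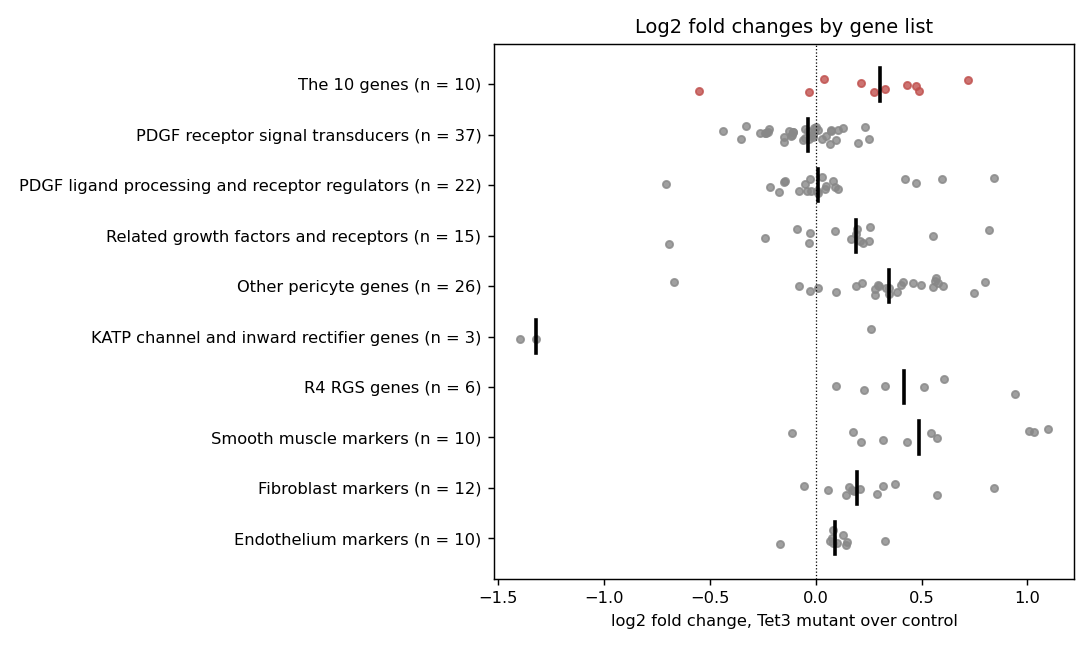
Log2 fold change, Tet3 mutant over control (horizontal axis), of every tested gene in each list, with 1 point per gene and a vertical line at the median. The 10 genes (median 0.30), the other pericyte genes (0.35) and the smooth muscle markers (0.49) lie mostly to the right of 0, and the signal transducers centre at -0.03.

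Markers of several cell types moved beside these values. Of 10 smooth muscle markers, 9 had log2 fold changes above 0, with a median of 0.49, and their summed level was 10206 and 10698 normalized counts in the controls and 12114 and 11123 in the mutants. Fibroblast markers had a median of 0.19 (11 of 12 above 0) and sums of 24685 and 20536 in the controls and 27014 and 24197 in the mutants. Endothelium markers had a median of 0.09 (9 of 10 above 0) and sums of 15151 and 14850 in the controls and 16237 and 15800 in the mutants. Both mutants exceeded both controls in the smooth muscle and endothelium sums, whereas the fibroblast sums overlapped. With 1 library left out, the smooth muscle median ran from 0.21 without control replicate 1 to 0.85 without control replicate 2, the fibroblast median from 0.07 without control replicate 2 to 0.32 without mutant replicate 2, and the endothelium median from 0.02 without control replicate 2 to 0.20 without control replicate 1.

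Macrophage markers had a median of 0.44 (9 of 10 above 0), with sums of 6930 and 6101 in the controls and 7473 and 8537 in the mutants. Alveolar type 2 markers had a median of -0.60 (0 of 8 above 0), with sums of 15158 and 22798 in the controls and 10661 and 13599 in the mutants. These 2 lists did not overlap between groups in their sums and lay on opposite sides. Platelet markers, of interest because platelets carry PDGF, had a median of 0.34 over 4 genes and sums of 403 and 226 in the controls and 250 and 577 in the mutants, with *Pf4* at 134 and 123 in the controls and 133 and 192 in the mutants. Mesothelium markers (median -0.31, 3 of 6 above 0) and Schwann cell markers (median 0.03, 2 of 4 above 0) were low, with sums of at most 1116. With 1 library left out, the platelet median took either sign, from -0.47 without mutant replicate 2 to 1.26 without mutant replicate 1, and was -0.35 without control replicate 2. The mesothelium median also took either sign, from -1.22 without control replicate 2 to 0.37 without control replicate 1, as did the Schwann cell median, from -0.18 to 0.05. The macrophage median stayed between 0.25 and 0.66 and the alveolar type 2 median between -0.84 and -0.32. The part of these cell types in the differences of the 10 genes was not tested.

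Each gene was also set against the summed markers of its own library, a scaling chosen after the data were seen. Relative to the smooth muscle sum, 4 of the 10 genes were higher in both mutants (*Pdgfrb*, *Pdgfd*, *Cspg4* and *Kcnj8*) and 2 lower in both (*Pdgfra* and *Rgs5*), beside 8.54% of all genes tested higher and 38.1% lower on the same scaling. Relative to the fibroblast sum, the higher 4 were *Pdgfd*, *Cspg4*, *Kcnj8* and *Abcc9* and the lower 2 were again *Pdgfra* and *Rgs5*, beside 8.75% and 31.9% of all genes. Relative to the endothelium sum, 6 were higher and the same 2 lower, beside 12.8% and 31.7%. Under all 3 scalings *Kcnj8*, *Cspg4* and *Pdgfd* were thus higher and *Rgs5* lower in both mutants, *Pdgfrb* overlapped relative to fibroblast markers, *Abcc9* relative to smooth muscle markers, and *Pdgfb* relative to both of these. The smooth muscle sum rested largely on *Mylk*, chosen after its values were seen. *Mylk* had 5721 and 4705 normalized counts in the controls and 5134 and 4476 in the mutants. It was the sole marker of that list with a log2 fold change below 0 (-0.11). Of the 4 genes higher against this sum, *Kcnj8* (0.72) lay above the list median of 0.49. *Pdgfd* (0.47), *Cspg4* (0.43) and *Pdgfrb* (0.33) lay below it.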

How the data were processed

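RNA of sorted lung smooth muscle cells was measured in 2 control and 2 Tet3 mutant libraries, grouped by the genotype in their labels. Per the authors' methods, ribosomal RNA was depleted, stranded total RNA libraries were sequenced single-end, reads passed through Trimmomatic 0.36 and STAR 2.6.0c on the mm10 (GRCm38) genome, and exonic reads were counted by featureCounts (Subread 1.6.0), leaving out those that mapped to several places or genes. The deposited values are a score: counts per gene that the authors normalized between samples and rounded to integers. No count model was used on them, because raw counts could not be recovered.

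Depth was estimated from the spacing of low values. Scaling factors were 0.961 and 1.05 in the controls and 1.09 and 0.901 in the mutants, and the estimate erred by at most 0.0005 on 4 simulated libraries. Counting errors cover counting only, because reads here had no molecular identifiers and may be copies of one molecule.

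Genes with a mean of at least 10 were compared on log2(value + 1) with limma 3.58.1 in R 4.3.3 (lmFit, eBayes with a trend), with Benjamini-Hochberg adjustment over the 16659 genes tested and a threshold of 0.05. The script was tested on simulated data. Ratios were tested by an exact permutation test over libraries. Exon lengths came from GENCODE M21, which is on the same build, and promoters from RefSeq. The named genes were the 10 members, the highest and lowest of each pathway list, defining markers and *Tet3*, and others are named as chosen after their values were seen. A gene that this rule takes is not reported here. The members and lists were chosen with earlier results of these data known.

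Alternatives were pseudocounts of 0.5 and 8, minimum means of 1 and 50, TMM factors, equal library totals, no trend, a replicate block and each library left out in turn. Marker-relative levels with their counts over all genes, subsets of the members and counts without control replicate 2 were added after the data were seen. *Zic1*, *Kcnj11*, *Kcnj4*, *Kcnj16*, *Rgs8*, *Rgs13*, *Rgs21*, *Sox10* and *Gfra3* of the lists were not analysed here.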

Additional observations from a re-analysis of the deposited data

How the results depend on the processing

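With 2 libraries a group, only large or tight differences can pass a test across all genes. The calls of the 10 genes did not depend on the settings run: limma called 0 of the 10 under each. Over all genes it called 0 under each setting except without the mean-variance trend, where it called 1 gene. With all libraries, the number of the 10 at an unadjusted p under 0.05 in limma was 4, and it was 3 with equal library totals and 1 without the trend. Over all 16659 genes tested that number was 1112, and it was 1151 with equal library totals and 1138 without the trend. Such numbers are not given for fits with 1 library left out, which leave 1 library in a group, so these 4 were not shown to hold there. The median log2 fold change of the 10 was 0.35 with equal totals, 0.24 for ligands and receptors alone, 0.46 for the pericyte genes alone and 0.24 to 0.31 with 1 library left out. *Pdgfra* turned to 0.018 with equal totals and ran from -0.13 to 0.071 with 1 library left out, and *Pdgfa* ran from -0.27 to 0.35. The other 8 kept their sign in all 4 such fits, *Pdgfc* only barely, at 0.004 to 0.55. With equal totals the median of the signal transducers turned to 0.014, that of all genes was 0.04, and 69.2% of genes at an unadjusted p under 0.05 were higher, against 57.4%. With 1 library left out, list medians ran from -0.065 to -0.018 (signal transducers), -0.036 to 0.089 (ligand processing and regulators), 0.081 to 0.23 (related growth factors), 0.21 to 0.47 (other pericyte genes), -1.95 to -0.69 (inward rectifiers) and 0.30 to 0.68 (RGS genes). Same-numbered libraries were not shown to be pairs. Over the 16659 genes tested, the deviations of control replicate 1 and mutant replicate 1 from their group means correlated at only 0.13 (Pearson). With the replicate block limma called 0 genes, 1637 were at an unadjusted p under 0.05, of which 42.8% were higher against 57.4% without the block, and the median of the 10 was 0.30. The cause of these shifts was not tested.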
